A study of Homo sapiens with 12 samples.

Results

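The immediate early genes described here are FOS, FOSB, JUN, JUNB and JUND of the AP-1 family, EGR1 and EGR2, NR4A1 and NR4A3, and IER3. They were chosen by name, with earlier results of these data known. Of the 10, 9 had a probe set of their own on the array. EGR2 had no one-gene probe set in the annotation used and was not analysed here. All 9 passed the filter on dim genes, out of 13120 genes tested and 18239 genes with a one-gene probe set. RNA was measured on 12 expression arrays, 1 for each of 4 treatments of 3 established human cell lines of ABC-DLBCL, the activated B cell-like form of diffuse large B cell lymphoma. The lines are OCI-LY3, OCI-HBL1 and OCI-LY10, and the values of a group are given in this order of lines throughout. CPI203 cells received 500 nM of CPI203, which keeps BET bromodomain proteins off acetylated chromatin, with a label time of 24 h. IRAKi cells received 50 µM of an inhibitor of the IRAK kinases, whose chemical identity is not stated, with a label time of 6 h. Combo cells received both agents, with a label time of 24 h. Control cells carry a label time of 24 h and no further description. The protocol itself gives 18 h of CPI203 and 6 h of the IRAK inhibitor. Each group holds 1 array per line, so n = 3. The 3 arrays of a group are 3 different lines, and no treatment was repeated on a second array within a line. The p-values therefore rest on how far the lines disagree in their changes. Technical spread between arrays is mixed into that disagreement, and these cannot be told apart.

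Immediate early genes are switched on by growth factor, antigen receptor and stress signals without the need for new protein synthesis, and most of their transcripts decay quickly. FOS and JUN proteins pair through leucine zippers to form AP-1, and EGR1 and the orphan nuclear receptors NR4A1 and NR4A3 bind sites of their own. In B cells several of these genes respond to the antigen receptor and to the MAP kinases ERK, JNK and p38. IER3 is a stress-responsive gene linked to NF-kB signalling and cell survival.

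The promoters of 4 members called higher under combined treatment, EGR1, FOS, NR4A3 and JUND, are shown so that the elements named after them can be read in place. The 250 bases before each annotated start come from RefSeq on GRCh38.p14, at chr5:138465229-138465478 for EGR1, chr14:75278578-75278827 for FOS and chr9:99821635-99821884 for NR4A3, all on the plus strand, and at chr19:18281623-18281872 on the minus strand for JUND. Each is written 5′ to 3′ on the gene's strand, and capitals mark matches to the motifs named after the sequences.
EGR1: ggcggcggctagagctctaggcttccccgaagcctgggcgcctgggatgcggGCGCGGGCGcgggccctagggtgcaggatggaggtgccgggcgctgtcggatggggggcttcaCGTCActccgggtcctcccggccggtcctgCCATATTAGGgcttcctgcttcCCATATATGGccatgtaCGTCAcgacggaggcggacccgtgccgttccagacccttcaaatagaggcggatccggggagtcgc
FOS: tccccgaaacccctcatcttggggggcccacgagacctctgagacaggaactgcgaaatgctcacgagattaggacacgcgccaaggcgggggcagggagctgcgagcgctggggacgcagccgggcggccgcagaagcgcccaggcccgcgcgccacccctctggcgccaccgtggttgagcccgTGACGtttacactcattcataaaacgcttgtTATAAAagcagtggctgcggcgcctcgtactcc
NR4A3: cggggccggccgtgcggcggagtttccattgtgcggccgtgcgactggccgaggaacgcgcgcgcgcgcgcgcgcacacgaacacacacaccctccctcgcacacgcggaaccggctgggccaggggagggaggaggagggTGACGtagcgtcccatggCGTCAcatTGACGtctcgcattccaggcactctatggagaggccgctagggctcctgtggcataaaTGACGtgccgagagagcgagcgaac
JUND: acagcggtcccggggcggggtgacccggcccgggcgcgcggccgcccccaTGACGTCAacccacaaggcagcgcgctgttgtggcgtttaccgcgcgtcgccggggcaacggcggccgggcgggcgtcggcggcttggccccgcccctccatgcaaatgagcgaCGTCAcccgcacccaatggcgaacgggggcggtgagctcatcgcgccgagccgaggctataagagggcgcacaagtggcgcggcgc
Both strands of the 300-base windows, which add 50 bases after the start, were searched for the AP-1 site TGANTCA, the cAMP response element TGACGTCA, its half-site TGACG (which the full element contains on both strands), the CArG box bound by serum response factor, the EGR site GCGNGGGCG, the NF-kB site, the NR4A site AAAGGTCA and the TATA box TATAAA. The reference table held windows for 9 of the 10 members, 12 windows in all, and none for IER3. The half-site was found in 8 of the 12 windows and in 24.6% of 35116 windows of all genes. EGR1 held a pair of CArG boxes, at positions -105 and -83 from the start, and EGR2 held 1 in 1 of its 3 windows, against 1.29% of all windows. JUND alone among the 9 genes held the full TGACGTCA, at -200, against 1.85% of all windows. NR4A3 held 4 half-sites, and FOS held 1 at -64 and a TATA box at -33. The well-known serum response element of FOS lies further upstream than this window. No AP-1 site of these letters lay in the 12 windows, against 7.71% of all windows. These matches describe letters in the windows, not bound sites.

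All 5 measured B cell markers and all 4 ABC-DLBCL markers were above the filter level, a log2 level of 4.20, on all 12 arrays, whereas no T cell or myeloid marker was above it on more than 3 arrays. The erythroid marker HBB was above it on all 12, at 4.31 to 5.10, and its part in the results was not tested. Array medians lay between 4.64 and 4.73. The poly-A control transcripts gave signals above those of Control, by 0.48 ± 0.27 with Combo, 0.30 ± 0.17 with CPI203 and 0.22 ± 0.03 with IRAKi (log2, SD, n = 3). Scaling the arrays to these transcripts put the median change of all genes at -0.48 with Combo, -0.29 with CPI203 and -0.22 with IRAKi against Control, and the changes below are relative to an unshifted median unless this scaling is named. It left 515 of all genes risen and 5486 fallen with Combo, against 2023 and 2191 as deposited, and 165 risen and 1530 fallen with CPI203, against 908 and 815. It left 2 risen and 15 fallen with IRAKi, 78 and 314 for Combo against CPI203, and 345 and 1917 for Combo against IRAKi, against 15 and 7, 257 and 355, and 1077 and 1379. The non-specific control probe sets averaged 4.00 on the OCI-LY10 IRAKi array and 3.64 to 3.79 on the others. In bulk RNA a change in every cell and a change in a share of the cells cannot be told apart.

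FOS, JUND, EGR1, NR4A3 and IER3 rose with combined treatment. These are 5 of the 9 members, none fell, and 15.4% of all genes tested rose and 16.7% fell (limma, adjusted p below 0.05). The median log2 change of the 9 was 1.14, against -0.0031 over all genes tested. With CPI203 alone 2 members rose, EGR1 and IER3, and none fell, where 6.92% of all genes rose and 6.21% fell. With IRAKi alone limma called none of the 9, and 1 had an unadjusted p below 0.05, where 0.114% of all genes rose and 0.0534% fell. An unadjusted p below 0.05 was given to 15.4% of all genes in that comparison. The 3 comparisons share the Control arrays, so they are not independent of each other. The members were chosen with earlier results of these data known, so their shares beside those of all genes are a description.

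**Figure D1:**
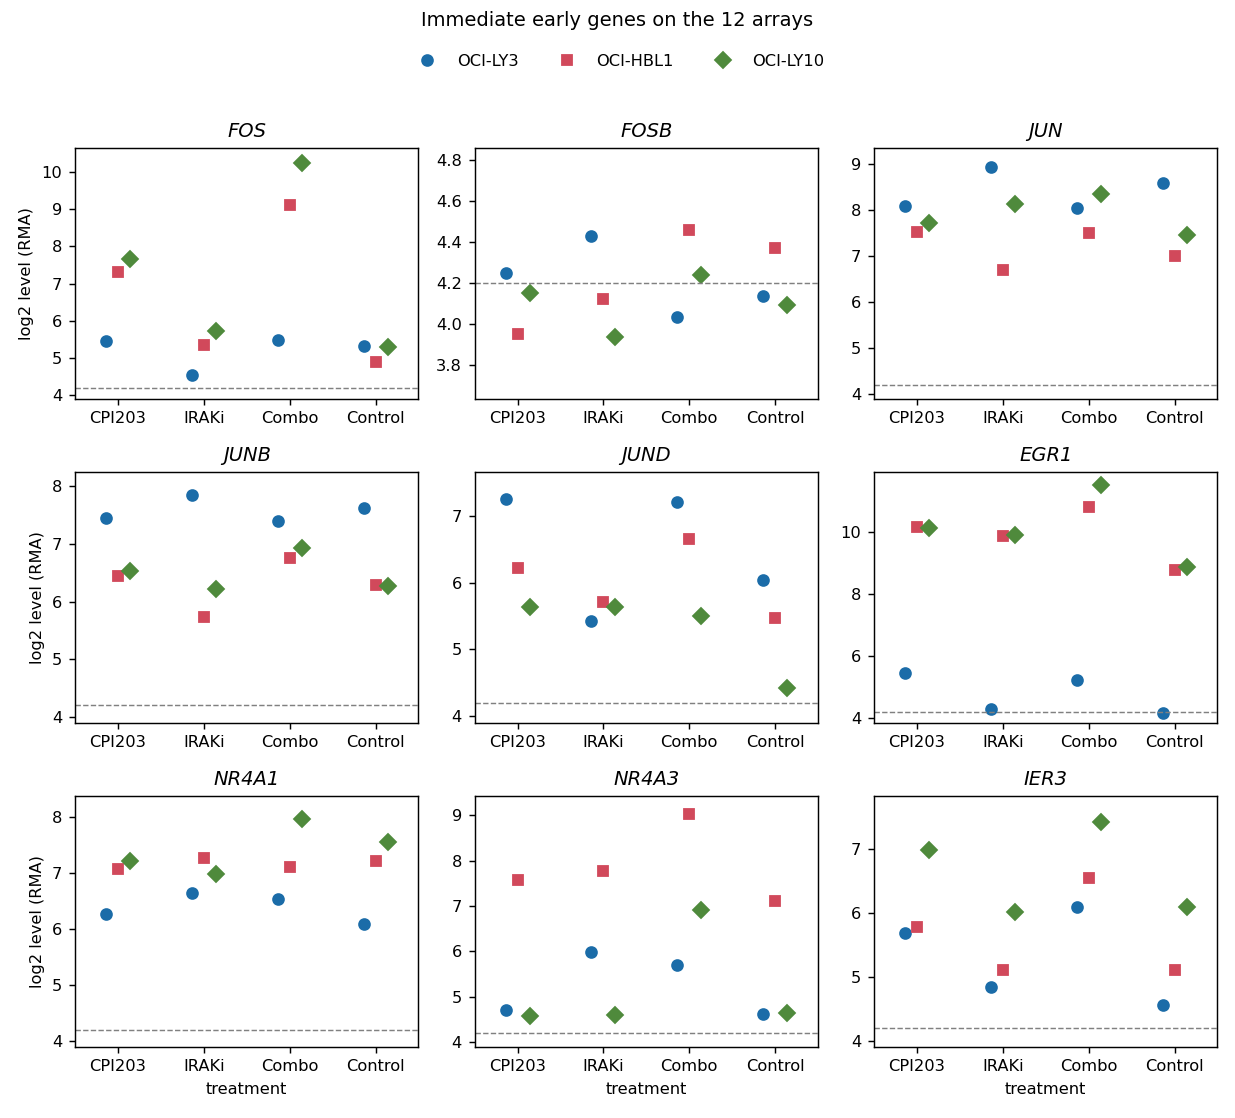
Log2 level (RMA) of each of the 9 measured genes by treatment, 1 point per array, with colour and marker giving the cell line and the dashed line the filter level of 4.20. FOS stands at 9.10 and 10.24 with Combo in OCI-HBL1 and OCI-LY10, while the OCI-LY3 points of FOS lie between 4.54 and 5.48.

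FOS, whose protein is the partner that JUN proteins need for strong AP-1 binding, had the largest fitted change of the 9 with Combo, with a far larger difference in 2 lines than in the third. Its log2 levels were 5.46, 7.30 and 7.66 with CPI203, 4.54, 5.36 and 5.71 with IRAKi, 5.48, 9.10 and 10.24 with Combo, and 5.31, 4.90 and 5.29 in Control. OCI-HBL1 and OCI-LY10 were high with CPI203 and higher with Combo, and OCI-LY3 was not. On the probe set used, the Combo levels of all 3 lines lay above all 3 Control levels. FOS averaged 8.28 ± 2.49 with Combo and 5.17 ± 0.23 in Control (SD, n = 3), a rise of 3.11 ± 0.71 on the log2 scale (SE) or 8.64-fold, with an adjusted p of 0.0086. In single lines, 1 array against 1 array and untested, the change was 0.17, 4.21 and 4.96 in the 3 lines. Leaving out OCI-HBL1 gave a change of 2.56 and leaving out OCI-LY10 one of 2.19 (adjusted p = 0.11 each), and neither passed, while without OCI-LY3 it was 4.58.

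FOS missed the threshold with CPI203 alone, at a log2 change of 1.64 ± 0.71 (adjusted p = 0.16). It stood 2.40 higher in OCI-HBL1, 2.38 higher in OCI-LY10 and 0.15 higher in OCI-LY3, and without OCI-LY3 the change of 2.39 passed (adjusted p = 0.02). With IRAKi alone the change was 0.04 ± 0.71, with a 95% interval of -1.55 to 1.63. The array holds 3 more FOS probe sets, and all 3 were called higher with Combo, with log2 changes between 1.62 and 3.67. None was called with either agent alone. In OCI-LY3, however, they disagreed, with Combo and Control at 5.12 and 5.22, at 4.67 and 4.77, and at 5.21 and 4.32.

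FOSB, a FOS relative that is induced by the same signals, stayed near the filter level. Its 12 log2 levels ran from 3.94 to 4.46, and 5 arrays were above the filter level. The groups overlapped, and the change with Combo was 0.04 ± 0.16 (95% interval -0.32 to 0.41). Its other probe set had a change of 0.19 and was not called either. No change in FOSB was detectable at these dim levels.

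JUND, which encodes the JUN protein that resting cells also carry, had log2 levels of 7.25, 6.23 and 5.63 with CPI203, 5.43, 5.72 and 5.64 with IRAKi, 7.20, 6.65 and 5.50 with Combo, and 6.05, 5.47 and 4.42 in Control. In each line the CPI203 and Combo arrays stood above that line's Control array, though the groups overlapped. JUND rose by 1.14 ± 0.33 with Combo (2.20-fold, adjusted p = 0.024), with changes of 1.16, 1.18 and 1.08 in the 3 lines. With CPI203 alone the change was nearly as large, 1.06 ± 0.33, and missed the threshold (adjusted p = 0.061). The Combo call was lost on leaving out OCI-HBL1 (1.12, adjusted p = 0.14) and on scaling to the poly-A transcripts (0.66, adjusted p = 0.091). The IRAKi change of 0.28 ± 0.33 combined -0.62, 0.25 and 1.22 in the 3 lines. The last was on the array with the high non-specific controls, whose part in this value was not tested. In OCI-LY10 the Control array, at 4.42, was close to the filter level, and all 3 changes of that line are taken against it.

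JUN, the main partner of FOS, had log2 levels of 8.08, 7.53 and 7.70 with CPI203, 8.94, 6.69 and 8.13 with IRAKi, 8.04, 7.50 and 8.33 with Combo, and 8.58, 6.99 and 7.46 in Control. The groups overlapped, and the lines disagreed on direction in each comparison with Control. The change with Combo was 0.28 ± 0.32 and not called, with a 95% interval of -0.43 to 1.00, from -0.53 in OCI-LY3 to 0.87 in OCI-LY10. JUNB, a JUN relative that can also restrain JUN activity, had log2 levels of 7.46, 6.43 and 6.53 with CPI203, 7.84, 5.74 and 6.23 with IRAKi, 7.39, 6.76 and 6.92 with Combo, and 7.61, 6.28 and 6.27 in Control. Its change with Combo was 0.30 ± 0.24 (95% interval -0.23 to 0.83), negative in OCI-LY3 and positive in the other lines. In OCI-LY3, the line where the FOS change was 0.17, the changes of JUN and JUNB were -0.53 and -0.22.

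EGR1, a zinc finger factor and classic target of serum response factor, rose with CPI203 and with Combo, and stood higher in every line on the probe set used. Its log2 levels were 5.44, 10.15 and 10.11 with CPI203, 4.28, 9.85 and 9.89 with IRAKi, 5.21, 10.79 and 11.51 with Combo, and 4.15, 8.78 and 8.86 in Control. OCI-LY3 was far below the other lines under all 4 treatments. On this probe set all 3 treated arrays of each line stood above Control. The change was 1.30 ± 0.28 with CPI203 (adjusted p = 0.017) and 1.91 ± 0.28 with Combo (adjusted p = 0.00094), or 2.47-fold and 3.75-fold. The Control level of EGR1 in OCI-LY3 was under the filter level. With IRAKi alone the change was 0.74 ± 0.28 and did not pass (adjusted p = 0.26). On this probe set it was positive in 3 of 3 lines, with 0.13 in OCI-LY3 and 1.07 and 1.03 in the other lines. The CPI203 call did not hold when OCI-HBL1 (1.27, adjusted p = 0.12) or OCI-LY10 (1.33, adjusted p = 0.066) was left out, nor over the mean of its probe sets (0.90, adjusted p = 0.11). With the line as a random block neither EGR1 call held (adjusted p = 0.055 with Combo and 0.26 with CPI203). Of 5 more EGR1 probe sets, all had positive changes with Combo, from 0.72 to 2.13, and 4 were called, whereas 2 were called with CPI203. In OCI-LY3, however, 3 of these 5 were lower with Combo than in Control. They stood at 4.04, 3.89 and 3.87 against 4.41, 4.33 and 4.38, all close to the filter level. The same 3 were lower there with CPI203, at 4.04, 4.00 and 4.01, and the others were higher with both. With IRAKi the same 3 were lower there too, at 4.24, 4.09 and 3.84. Of the others 1 was lower with IRAKi, at 4.18 against 4.35, and 1 was higher, at 4.77 against 4.28.

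NR4A3 and NR4A1 encode related orphan nuclear receptors that antigen receptor signals induce, and only NR4A3 was called. Its log2 levels were 4.71, 7.58 and 4.59 with CPI203, 5.98, 7.77 and 4.61 with IRAKi, 5.71, 9.02 and 6.91 with Combo, and 4.61, 7.10 and 4.64 in Control. On the probe set used OCI-HBL1 was the high line throughout, and within each line the Combo array stood above Control. NR4A3 rose by 1.76 ± 0.36 with Combo (3.38-fold, adjusted p = 0.005), with changes of 1.09, 1.91 and 2.26 in the 3 lines. Leaving out OCI-HBL1 ended the call (1.68, adjusted p = 0.061). With CPI203 alone the change was 0.17 ± 0.36 (95% interval -0.63 to 0.98). With IRAKi alone it was 0.67 ± 0.36 and not called (adjusted p = 0.43), with 1.37, 0.67 and -0.04 in the 3 lines. The OCI-LY3 IRAKi array, at 5.98, was thus slightly above that line's Combo array. Of 2 dimmer NR4A3 probe sets 1 was called with Combo, at 0.98, and the other stood at -0.10, with a mean level below the filter. In OCI-LY3 these 2 stood at 3.93 and 3.88 with IRAKi, 4.27 and 4.13 with Combo, and 4.12 and 4.29 in Control. Unlike the probe set used, both were thus lower there with IRAKi than with Combo or in Control, at dim levels. Over the mean of the 3 probe sets NR4A3 stood at 0.88 with Combo and remained called (adjusted p = 0.0051).

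NR4A1 had log2 levels of 6.27, 7.07 and 7.22 with CPI203, 6.64, 7.27 and 6.99 with IRAKi, 6.53, 7.11 and 7.97 with Combo, and 6.09, 7.22 and 7.56 in Control. The groups overlapped. Its change with Combo was 0.25 ± 0.22 (95% interval -0.24 to 0.74), and none of the 5 other NR4A1 probe sets that passed the filter was called. Whether NR4A1 and NR4A3 differ in their response was not tested.

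IER3 had the smallest error of the 9 members and rose with CPI203 and with Combo. Its log2 levels were 5.69, 5.78 and 6.98 with CPI203, 4.84, 5.11 and 6.01 with IRAKi, 6.09, 6.54 and 7.42 with Combo, and 4.55, 5.11 and 6.09 in Control. In each line the order was the same at the top, with Combo highest and CPI203 next, while IRAKi and Control lay within 0.29 of each other. IER3 rose by 0.90 ± 0.12 with CPI203 (1.86-fold, adjusted p = 0.0027) and by 1.44 ± 0.12 with Combo (2.71-fold, adjusted p = 8.6e-05). The Combo changes were 1.55, 1.44 and 1.33 in the 3 lines. With IRAKi alone the change was 0.07 ± 0.12 (95% interval -0.19 to 0.34). The CPI203 call ended on leaving out OCI-LY3 (0.78, adjusted p = 0.064) and on scaling to the poly-A transcripts (0.59, adjusted p = 0.08).

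**Figure D2:**
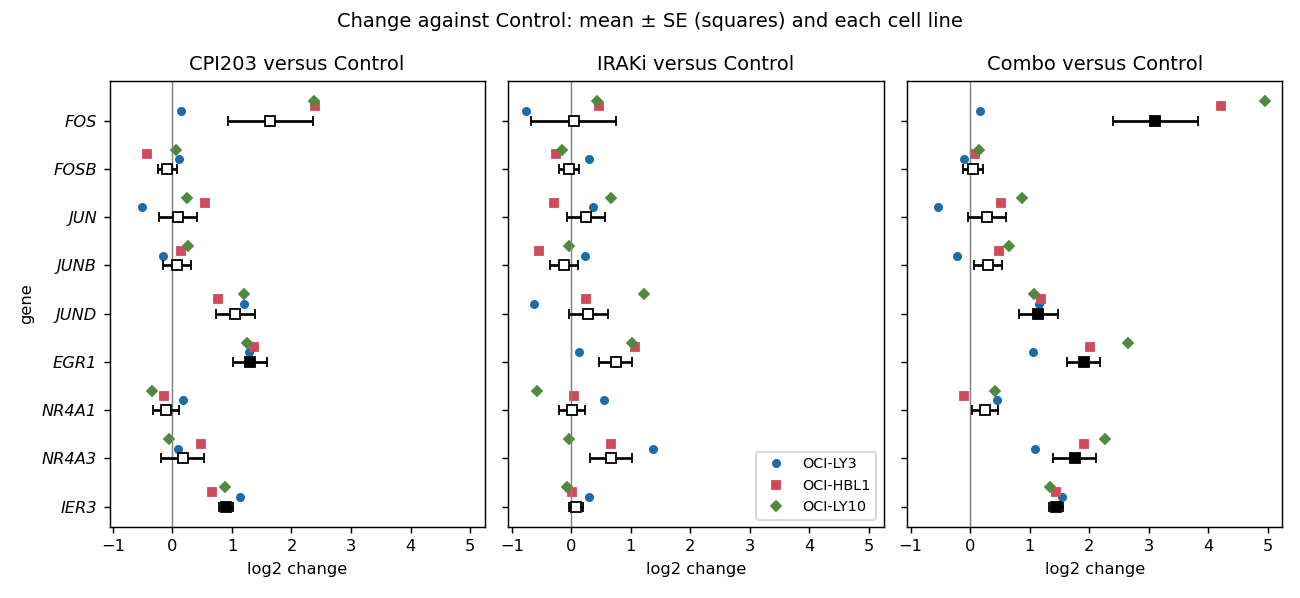
Log2 change against Control for each gene with CPI203, IRAKi and Combo. Squares with bars are the fitted mean and its moderated SE (filled where the adjusted p is below 0.05), and coloured markers above them are the changes in single lines. With Combo the FOS markers lie at 0.17, 4.21 and 4.96, while those of IER3 lie between 1.33 and 1.55.

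What the IRAK inhibitor adds to CPI203 was asked by comparing Combo with CPI203, both with a label time of 24 h. Of the 9 members 2 rose and none fell, where 1.96% of all genes tested rose and 2.71% fell. NR4A3 stood higher with Combo by 1.58 ± 0.36 (adjusted p = 0.041), in 3 of 3 lines with a difference of 1.44 in OCI-HBL1 and 2.32 in OCI-LY10. IER3 stood higher by 0.54 ± 0.12 (1.45-fold, adjusted p = 0.038), also in 3 of 3 lines. Both calls were lost when any 1 of the 3 lines was left out, with differences of 1.22 to 1.88 for NR4A3 and 0.43 to 0.61 for IER3. Of all 13120 genes limma called 0, 3 and 0 on leaving out OCI-LY3, OCI-HBL1 and OCI-LY10, against 612 with all lines. Nearly all genes thus lost their calls in these fits. IER3 was also not called after scaling to the poly-A transcripts (0.37, adjusted p = 0.41). Over the mean of its probe sets the NR4A3 difference was 0.85 (adjusted p = 0.033), and with the line as a random block neither gene was called (adjusted p = 0.087 for NR4A3 and 0.13 for IER3). FOS differed by 1.47 ± 0.71 without passing (adjusted p = 0.28), with 0.02, 1.81 and 2.58 in the 3 lines. EGR1 differed by 0.60 ± 0.28 without passing (adjusted p = 0.26), with -0.23 in OCI-LY3. JUND had a difference of 0.08 ± 0.33 (95% interval -0.65 to 0.81).

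Combo against IRAKi adds CPI203, but the label times of 24 h and 6 h differ with it, and the effects of agent and time cannot be told apart. The same holds for IRAKi against Control. Of the 9 members 3 rose and none fell, where 8.21% of all genes tested rose and 10.5% fell. FOS was higher with Combo by 3.07 ± 0.71 (adjusted p = 0.017), EGR1 by 1.16 ± 0.28 (adjusted p = 0.019) and IER3 by 1.36 ± 0.12 (adjusted p = 0.00036). NR4A3 differed by 1.09 ± 0.36 and JUND by 0.86 ± 0.33, and neither passed (adjusted p = 0.063 and 0.099). On the probe set used, the NR4A3 difference was -0.27 in OCI-LY3 and 1.24 and 2.30 in the other lines. Neither FOS nor EGR1 was called on leaving out OCI-HBL1 (2.73 and 1.28), OCI-LY10 (2.34 and 0.93) or just the IRAKi array of OCI-LY10 (2.83 and 1.19), and EGR1 was also not called over the mean of its probe sets (0.93) or with the line as a random block (adjusted p = 0.28). Without OCI-LY3 the members called numbered 5, with NR4A3 at 1.77 and JUNB at 0.86 added.

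The interaction term, Combo minus CPI203 minus IRAKi plus Control, measures how far the combined change departs from the sum of the single changes on the log2 scale. Limma called none of the 9 members, where it called 0.00762% of all genes tested higher. IER3 alone had an unadjusted p below 0.05, as did 8.27% of all genes, so 1 of 9 is near the share of all genes. FOS had an interaction of 1.43 ± 1.01 (adjusted p = 0.78), positive in 3 of 3 lines, and NR4A3 one of 0.92 ± 0.51 (adjusted p = 0.69). IER3 stood at 0.47 ± 0.17 (adjusted p = 0.51), also positive in 3 of 3 lines, with 0.12, 0.76 and 0.52. EGR1 stood at -0.14 ± 0.40, with a 95% interval of -1.02 to 0.75. These intervals are wide, and the FOS interval runs from -0.83 to 3.68.

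**Figure D3:**
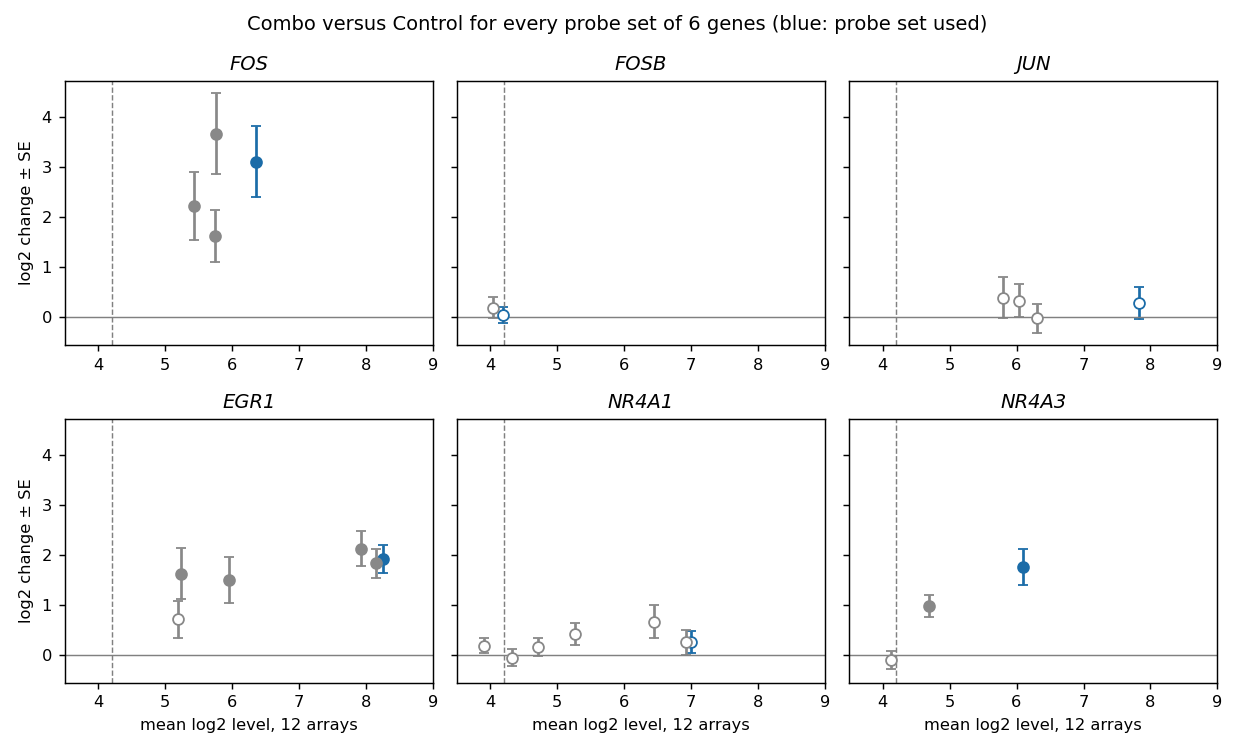
Log2 change with Combo against Control (± SE) for every probe set of the 6 genes that have more than 1, plotted against the mean log2 level over the 12 arrays. Blue marks the probe set used, filled symbols an adjusted p below 0.05 and the dashed line the filter level. All 4 FOS probe sets are filled and none of JUN, FOSB or NR4A1 is.

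Lines were compared by level only, since 1 array per line and treatment allows no test of a difference in response. In EGR1 the cell line accounted for 91.3% of the sum of squares over the 12 arrays and treatment for 7.44%. Treatment took the larger share in FOS, at 55.4% against 24.4% for line, and in IER3, at 52.2% against 46.8%, while in JUND the shares were near equal, at 40.3% and 39.9%. In JUN, JUNB, NR4A1 and NR4A3 the line took the larger share, at 66.9%, 79.5%, 75.6% and 71.7%. Treatment took 3.42%, 6.03%, 6.43% and 21.6% in these genes. In FOSB the line took 10.5% and treatment 7.95%, and 81.5% fell to neither. On all 4 arrays of OCI-LY3, JUNB lay above the 8 arrays of the other lines, where 7.77% of all genes do so. EGR1 and NR4A1 lay below them on all 4, where 5.67% of all genes do so. On all 4 arrays of OCI-HBL1, NR4A3 lay above the other lines, where 8.80% of all genes do so. Counts of 1 or 2 of 9 are not read as a result about the set. EGR1 spanned 8.86 to 11.51 in OCI-LY10, 8.78 to 10.79 in OCI-HBL1 and 4.15 to 5.44 in OCI-LY3. The ranges of OCI-HBL1 and OCI-LY10 overlapped, and they did so in FOS, with 4.90 to 9.10 in OCI-HBL1 and 5.29 to 10.24 in OCI-LY10. FOS ran from 4.54 to 5.48 in OCI-LY3. The Control levels of FOS, 5.31, 4.90 and 5.29, were close to each other, and the widest spread between lines was with Combo, at 5.48, 9.10 and 10.24.

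After each line's mean was subtracted, FOS and EGR1 had a Pearson r of 0.87 over the 12 arrays, EGR1 and IER3 one of 0.85 and FOS and IER3 one of 0.83. JUN was closest to JUNB among the members (r = 0.77), and NR4A1 to NR4A3 (r = 0.70). These arrays share lines and treatments, so the values are a description. Outside the members, among the 4388 tested genes with an SD of at least 0.3 over the arrays after the line means were removed, those most like FOS were ACBD7, the histone gene H2AC8 and the growth factor gene PTN, with r between 0.95 and 0.97. Those most like EGR1 were RAB43, IGF2R and ATP6V0D1 (r of 0.96 to 0.98). Those most like IER3 were FRMD6, SERPINE2 and TXNDC12 (r of 0.98 to 0.99). Those most like NR4A3 were C18orf54, KLF10, itself an early response gene, and AURKC (r of 0.94 to 0.97). Those most like JUNB were EGR4, MIDN and RELT (r of 0.85 to 0.89). The gene most like JUND was LMBRD2 (r = 0.90), that most like NR4A1 PXK (r = 0.87), that most like JUN DUSP2 (r = 0.79) and that most like FOSB ABHD14B (r = 0.89).

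The lists here and below were also drawn up with earlier results of these data known. Of 20 other immediate early genes listed, 16 were tested. With Combo against Control 10 of the 16 rose, 1 fell and 5 did not pass, where 15.4% of all genes rose and 16.7% fell, and their median log2 change was 0.80. The largest rises were those of GADD45B, a stress-induced growth arrest gene, at 1.44 ± 0.15 (adjusted p = 2e-04), EGR3 at 1.35 ± 0.29 (0.36 over the mean of its probe sets), ZFP36, which encodes an mRNA decay factor, at 1.15 ± 0.26, and KLF6 at 1.15 ± 0.21. TRIB1, a pseudokinase gene, fell, with a change of -0.97 ± 0.23. EGR4 did not pass (1.17 ± 0.41, adjusted p = 0.055), with -0.19 in OCI-LY3 and 1.71 and 1.99 in the other lines, and IER2 did not pass either (0.73 ± 0.32), with -0.37 in OCI-LY3 (both named after their values were seen). On leaving out OCI-LY3 11 rose and none fell, on leaving out OCI-HBL1 6 and none, on leaving out OCI-LY10 5 and 1, and after scaling to the poly-A transcripts 5 and 1.

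With CPI203 alone 2 of the 16 rose, where 6.92% of all genes did, GADD45B by 0.61 ± 0.15 and IER5 by 0.59 ± 0.16. Limma called none of the 16 when any 1 line was left out or after scaling to the poly-A transcripts. Of all 13120 genes it called 216, 720 and 282 on leaving out OCI-LY3, OCI-HBL1 and OCI-LY10, against 1723 with all lines. With IRAKi alone limma called none of the 16, and 2 had an unadjusted p below 0.05, where 15.4% of all genes did. Combo against CPI203 gave 4 risen, where 1.96% of all genes rose, KLF10 by 0.88 ± 0.20, GADD45B by 0.83 ± 0.15, PPP1R15A, which restores protein synthesis after stress, by 0.82 ± 0.16 and KLF2 by 0.65 ± 0.15. Over the mean of its probe sets KLF2 stood at 0.60 and was not called (adjusted p = 0.084). Limma called none of the 16 when any 1 line was left out or after that scaling. Of all genes it called 0, 3 and 0 with these lines left out in turn, against 612 with all lines. Combo against IRAKi gave 9 risen and none fallen, where 8.21% of all genes rose, led by EGR4 at 1.46 ± 0.41 (0.90 over the mean of its probe sets) and PPP1R15A at 1.04 ± 0.16. That count was 6 on leaving out OCI-LY3, 3 on leaving out OCI-HBL1, 0 on leaving out OCI-LY10, 4 on leaving out just its IRAKi array, and 5 after scaling to the poly-A transcripts.

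BATF3, BATF and JDP2, from the list of other AP-1 and partner leucine zipper genes, fell with Combo and with CPI203. Of 11 tested, 2 rose and 4 fell with Combo against Control, where 15.4% of all genes rose and 16.7% fell. With CPI203 1 rose and 3 fell, where 6.92% rose and 6.21% fell. The risen shares are thus near those of all genes. BATF3 and BATF, which pair with JUN proteins and act with IRF4 in lymphocytes, changed by -2.28 ± 0.26 (adjusted p = 0.00028) and -2.13 ± 0.28 (adjusted p = 0.00053), in 3 of 3 lines each. JDP2, a repressor that dimerises with JUN, changed by -1.53 ± 0.24, and BACH1, a repressor that pairs with small MAF proteins, rose by 1.30 ± 0.15. With CPI203 alone BATF3 changed by -1.66 ± 0.26, BATF by -1.41 ± 0.28 and JDP2 by -0.85 ± 0.24, and BACH1 rose by 0.72 ± 0.15. Over the mean of its probe sets BACH1 stood at 0.60 with Combo and at 0.33 with CPI203, the second not called (adjusted p = 0.069). With CPI203 none rose and 1 fell on leaving out OCI-LY3 or OCI-LY10, and none rose and 3 fell after scaling to the poly-A transcripts. With Combo 1 rose and 4 fell on leaving out OCI-LY3 or OCI-HBL1, and 1 rose and 5 fell after that scaling. The FOS relatives FOSL1 and FOSL2 stood at 0.15 ± 0.16 and -0.18 ± 0.20 with Combo and were not called.

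ELK4, ELK3 and CRTC2 fell with Combo, 3 of 13 upstream transcription factors tested, and none rose. The fallen share is near the 16.7% of all genes that fell. ELK4 and ELK3 are among the ternary complex partners of serum response factor. On the probe sets used, they changed by -1.34 ± 0.17 (adjusted p = 0.00042) and -1.02 ± 0.22 (adjusted p = 0.0061), and CRTC2, a coactivator of CREB, by -0.58 ± 0.19. With CPI203 alone ELK3 changed by -0.97 ± 0.22 and ELK4 by -0.76 ± 0.17. Over the mean of its probe sets ELK4 stood at -0.12 with Combo (adjusted p = 0.36) and at -0.18 with CPI203 (adjusted p = 0.21) and was called in neither, so its change rests on the probe set used. SRF itself stood at 0.33 ± 0.18 and ELK1 at 0.23 ± 0.12 with Combo, and neither was called. With Combo 1 rose and 1 fell on leaving out OCI-LY3, 2 fell on leaving out OCI-HBL1, and 7 fell after scaling to the poly-A transcripts. With CPI203 limma called none on leaving out OCI-LY3 or OCI-LY10 and 1 on leaving out OCI-HBL1.

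The list of MAP kinases and their activators also holds kinases that act downstream of them, such as RPS6KA1 and RPS6KA3. Of its 20 genes 13 had a one-gene probe set. With Combo 6 rose and 2 fell, where 15.4% of all genes rose and 16.7% fell. The fallen share is thus near that of all genes. MAPK8, which encodes the JUN kinase JNK1, rose by 1.51 ± 0.15 (adjusted p = 0.00019), MAP2K3, an activator of p38, by 1.36 ± 0.19, and MAP3K8, which activates the ERK pathway in inflammatory signalling, by 1.23 ± 0.20. RPS6KA1, an ERK-activated kinase gene, fell, with changes of -0.94, -0.92 and -1.14 in the 3 lines. With CPI203 alone 5 rose and none fell, where 6.92% of all genes rose, led by MAPK8 at 1.20 ± 0.15 and with MAPK9, the JNK2 gene, at 0.74 ± 0.13 (0.48 over the mean of its probe sets). Against CPI203, Combo had MAP3K8 higher by 0.95 ± 0.20 and RPS6KA1 and RPS6KA3 lower, with differences of -0.73 ± 0.13 and -0.61 ± 0.14. Limma called none of these on leaving out any 1 line. Of all 13120 genes it called 0, 3 and 0 on leaving out OCI-LY3, OCI-HBL1 and OCI-LY10, against 612 with all lines. Over the mean of its probe sets RPS6KA3 stood at -0.16 and was not called (adjusted p = 0.55). With CPI203 the count was 0 on leaving out OCI-LY3, 2 on leaving out OCI-HBL1 and 1 on leaving out OCI-LY10, and 1 rose and 1 fell after scaling to the poly-A transcripts. With Combo 4 rose and 1 fell on leaving out OCI-LY3, 3 rose and 2 fell on leaving out OCI-LY10, and 3 rose and 4 fell after that scaling. MAPK9, which rose by 0.46 ± 0.13 with Combo, stood at -0.018 under that scaling and at 0.25 over the mean of its probe sets (adjusted p = 0.17).

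The feedback inhibitors listed, among them phosphatases and decay factors, can shut these genes off. Of 15 tested, 1 rose and 1 fell with Combo, where 15.4% of all genes rose and 16.7% fell. They were DUSP10, a phosphatase of JNK and p38, at 1.03 ± 0.30 (adjusted p = 0.027), and ZFP36L1, an mRNA decay factor, at -1.24 ± 0.25 (adjusted p = 0.0045), which stood at -0.63 over the mean of its probe sets. DUSP1 and DUSP6, usual companions of FOS and EGR1 induction, stood at 0.10 ± 0.19 and 0.06 ± 0.14 and were not called. With CPI203 and with IRAKi limma called none of the 15, and 2 and 0 had an unadjusted p below 0.05, where 28.3% and 15.4% of all genes did. With Combo limma called none on leaving out OCI-HBL1 or OCI-LY10, none rose and 1 fell on leaving out OCI-LY3, and none rose and 4 fell after scaling to the poly-A transcripts.

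**Figure D4:**
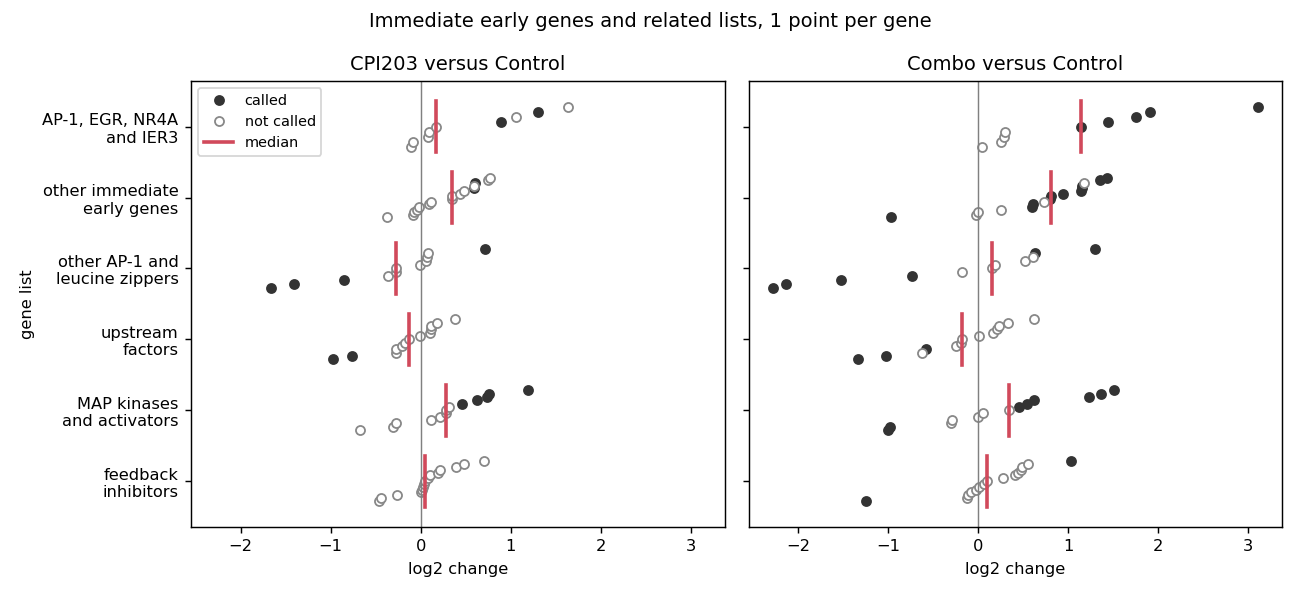
Log2 change of each tested gene with CPI203 and with Combo against Control, by list, with filled points for an adjusted p below 0.05 and red bars for the list's median. With Combo the medians are 1.14 for the members and 0.80 for the other immediate early genes, against 0.10 for the feedback inhibitors.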

How the data were processed

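RNA from 3 ABC-DLBCL cell lines under 4 treatments was measured on 12 Affymetrix arrays. The deposited values are log2 levels that the authors made with RMA in Affymetrix Expression Console 1.1, per the submitters' processing notes. No genome build is named in the sources used here. Of 49386 probe sets, 45253 carry 1 gene and were used. Each gene is its probe set of highest mean, and 13120 genes above the 40th percentile of all values (4.20) on at least 3 arrays were tested. The probe sets used for FOSB, JUNB, JUND and NR4A1 end in x_at and those for EGR1, NR4A3 and IER3 in s_at, which mark probes that other transcripts may share.

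All arrays were fitted with limma 3.58.1 in R 4.3.3 with treatment and cell line as terms (6 residual degrees of freedom). Tests were two-sided, adjusted by Benjamini-Hochberg over all genes tested and called below 0.05; errors of changes are moderated SEs. Same-numbered samples are the same line, so the line pairs the samples, and same-line deviations from group means correlated at 0.82 to 0.91. Tested on simulated data for Combo against Control with 13120 genes, the fit recovered 22.4% of planted changes of 0.5, 67.2% of 1 and 92.4% of 2. Members and lists were chosen with earlier results of these data known. Genes named are all members and, from each related list, up to 4 called genes of largest change that moved one way in all 3 lines. TRIB1, EGR4, IER2, FOSL1, FOSL2, SRF, ELK1, DUSP1, DUSP6 and MAPK9 with Combo were named after their values were seen. The number of arrays limits the precision.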

Additional observations from a re-analysis of the deposited data

How the results depend on the processing

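Median centring, cyclic loess and no filter changed no call of the 9 members in the 6 comparisons. Across the 14 alternatives no called member reversed its direction. No filter, the 60th percentile filter, trend and robust estimation and both changes of block leave each log2 change as it is. So does a fit of only the groups compared, and a reversal could not occur in any of these. With no replicate block the members called were 0 with CPI203, 0 with Combo against Control, 0 against CPI203 and 0 against IRAKi. Of all 13120 genes 4, 465, 2 and 7 were called in that fit, against 1723, 4214, 612 and 2456 in the main fit. With the line as a random replicate block the members called were 1 with CPI203 and 0 for Combo against CPI203, where 1281 and 466 of all genes were called. Spike-in scaling gave 1 member with CPI203 and 1 for Combo against CPI203, where 1695 and 392 of all genes were called. Trend and robust estimation and a fit of only the groups compared each gave 1 member for Combo against CPI203. Of all genes they called 954 and 198 in that comparison. With each line left out in turn, the members called were 1 to 2 with CPI203, 2 to 5 with Combo against Control, 0 to 0 for Combo against CPI203 and 1 to 5 for Combo against IRAKi. Of all genes 216 to 720, 2072 to 3420, 0 to 3 and 526 to 1704 were called in these fits. On leaving out just the IRAKi array of OCI-LY10 the members called were 3 with CPI203, where 1580 of all genes were called. Averaging a gene's probe sets lost EGR1 with CPI203 (0.90, adjusted p = 0.11) and for Combo against IRAKi (0.93, adjusted p = 0.084). JUND with CPI203 was called under that setting, the 60th percentile filter (5.70), trend and robust estimation, only the groups compared, and without the OCI-LY10 IRAKi array. FOS with Combo was not called in a fit of only the groups compared (adjusted p = 0.076), and EGR1 with Combo was not with the random block (adjusted p = 0.055). The interaction was not fitted with only the groups compared, since it uses all 4. The causes of these changes were not tested. FOSB lay near the filter level, which limits what its probe sets can show.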
